A study of Homo sapiens with 16 samples.

Results

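Peaks of RNA polymerase II (Pol II) and of DNA topoisomerase II alpha (TOP2A) were read at 8 genes of the integrated stress response: ATF4, DDIT3, DDIT4, TRIB3, ASNS, CHAC1, VEGFA and SLC7A11. The genes were chosen from knowledge of the response, with earlier results of these data known, and found by their spans on the hg19 genome, each taken with 2 kb upstream and 5 kb downstream. All 8 were placed. Their windows held 39 of 87911 Pol II peaks of the control list, 51 of 85990 after 30 min of merbarone, 20 of 81816 after 1 h, and 1 of 1840 TOP2A peaks.

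The cells were wild-type hTERT RPE-1, a telomerase-immortalised line of human retinal pigment epithelium. All libraries came from cells held in 0.1% serum for 48 h, so no group was in full serum. Chromatin was immunoprecipitated for RPB1, the largest Pol II subunit, in 3 libraries after 30 min of 200 uM merbarone, 2 libraries after 1 h of it, 3 libraries after 30 min of the vehicle DMSO and 3 untreated libraries. Merbarone blocks topoisomerase II before it cuts DNA. TOP2A was immunoprecipitated in 2 untreated libraries, and 3 IgG libraries were not analysed here. The DMSO and untreated libraries shared a peak list, called control below. No library had 1 h of DMSO, so control holds no vehicle matched in time to the 1 h list. Each condition had 1 list with positions only, and the depth of the libraries is unknown. No value below therefore has a spread between replicates, and no test was run: comparisons are between lists, not between cultures. Neighbouring values in an order cannot be said to differ beyond error.

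In the integrated stress response, kinases that sense unfolded protein, amino acid shortage, viral RNA or haem shortage phosphorylate the translation factor eIF2. General translation then drops, while short reading frames upstream of the ATF4 coding sequence let more ATF4 protein be made. ATF4 binds C/EBP-ATF elements in target genes, often with a C/EBP partner, and raises genes for amino acid supply, redox balance and, when stress lasts, cell death. ATF4 itself is controlled largely at translation, which Pol II mapping does not measure.

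The promoters are shown because all 8 genes had a Pol II peak over or within 250 bp of their start in each of the 3 Pol II lists. RefSeq sequences of the 250 bases before the start, on the strand of the gene, were matched for 6 of the 8 genes, with the start listed first where RefSeq gives several. The 4 printed here are those of the regulator ATF4, of DDIT4, the gene with a TOP2A peak at its start, and of ASNS and CHAC1, which held a C/EBP-ATF core. Capitals mark matches, on either strand, to the C/EBP-ATF core TGATGNAA, the TATA box TATAAA and the CCAAT box CCAAT. No matches overlapped. Positions are of GRCh38.p14 and were not set against the hg19 peaks. Distances of matches are from these RefSeq starts, which can differ from the hg19 starts used for the peaks, for any of the genes.
ATF4, + strand, chr22:39520309-39520558: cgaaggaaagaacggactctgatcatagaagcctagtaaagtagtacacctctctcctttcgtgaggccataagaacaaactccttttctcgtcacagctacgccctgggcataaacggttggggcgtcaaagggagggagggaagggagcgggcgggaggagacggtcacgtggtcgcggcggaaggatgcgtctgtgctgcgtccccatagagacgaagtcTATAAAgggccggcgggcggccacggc
DDIT4, + strand, chr10:72273674-72273923: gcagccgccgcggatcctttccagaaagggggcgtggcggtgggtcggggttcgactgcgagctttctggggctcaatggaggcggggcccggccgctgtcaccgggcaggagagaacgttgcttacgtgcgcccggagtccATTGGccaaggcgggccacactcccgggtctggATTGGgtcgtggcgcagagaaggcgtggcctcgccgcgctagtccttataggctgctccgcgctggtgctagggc
ASNS, - strand, chr7:97872409-97872658: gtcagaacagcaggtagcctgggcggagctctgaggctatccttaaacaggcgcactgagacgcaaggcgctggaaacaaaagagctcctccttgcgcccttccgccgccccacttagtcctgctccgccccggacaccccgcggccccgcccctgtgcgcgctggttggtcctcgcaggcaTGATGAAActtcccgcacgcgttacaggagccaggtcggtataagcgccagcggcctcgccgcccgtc
CHAC1, + strand, chr15:40953221-40953470: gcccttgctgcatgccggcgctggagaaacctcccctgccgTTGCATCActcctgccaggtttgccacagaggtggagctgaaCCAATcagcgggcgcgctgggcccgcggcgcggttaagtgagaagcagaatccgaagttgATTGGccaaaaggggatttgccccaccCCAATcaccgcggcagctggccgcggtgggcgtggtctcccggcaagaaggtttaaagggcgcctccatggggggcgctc

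ATF4 had a TATA box that began 27 bases before its start. DDIT4 had 2 CCAAT boxes. ASNS had a C/EBP-ATF core that began 68 bases before its start, and CHAC1 had 1 on the reverse strand, 209 to 202 bases before its start, besides 3 CCAAT boxes. Of the 2 matched promoters not printed, that of DDIT3 had 2 CCAAT boxes and that of TRIB3 had no match. In all, 2 of the 6 held the C/EBP-ATF core, 1 the TATA box and 3 the CCAAT box. Among 27305 human promoters of the same length, 3.19% held the C/EBP-ATF core, 11.1% the TATA box and 33.0% the CCAAT box. These matches are letters in a window and do not show that a factor was bound. The genes were chosen from knowledge of the response, ASNS being a long-studied ATF4 target, so a core among them is no independent finding. The counts come from 6 promoters chosen in this way. They were not tested against the shares and are not read as an excess.

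Cover, the share of a window's bases that lie under called peaks, set the 8 genes apart by shape. In control, Pol II covered 94.3% of the DDIT3 window, 90.9% of the ATF4 window, 55.4% of the VEGFA window and 55.3% of the DDIT4 window. The other genes had peaks at the start and little beyond, with 7.28% for CHAC1, 3.86% for TRIB3, 2.56% for ASNS and 0.814% for SLC7A11. Window length enters these shares, since the SLC7A11 window is 85.3 kb and that of DDIT4 9.12 kb. In windows of 10 kb that began 2 kb upstream of the start, the first 4 genes stood at 94.3%, 91.6%, 66.8% and 50.5%, and the others between 6.94% and 9.23%. For scale, 5.29% of the 33506 tiles of 10 kb with a Pol II peak in any list were covered over at least 50% in control. Here and below, the tiles were not placed on gene starts as the windows were, and their median cover in control was 6.85%. They give a scale only, and do not show whether the 8 genes differ from other genes with Pol II at the start.

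**Figure D1:**
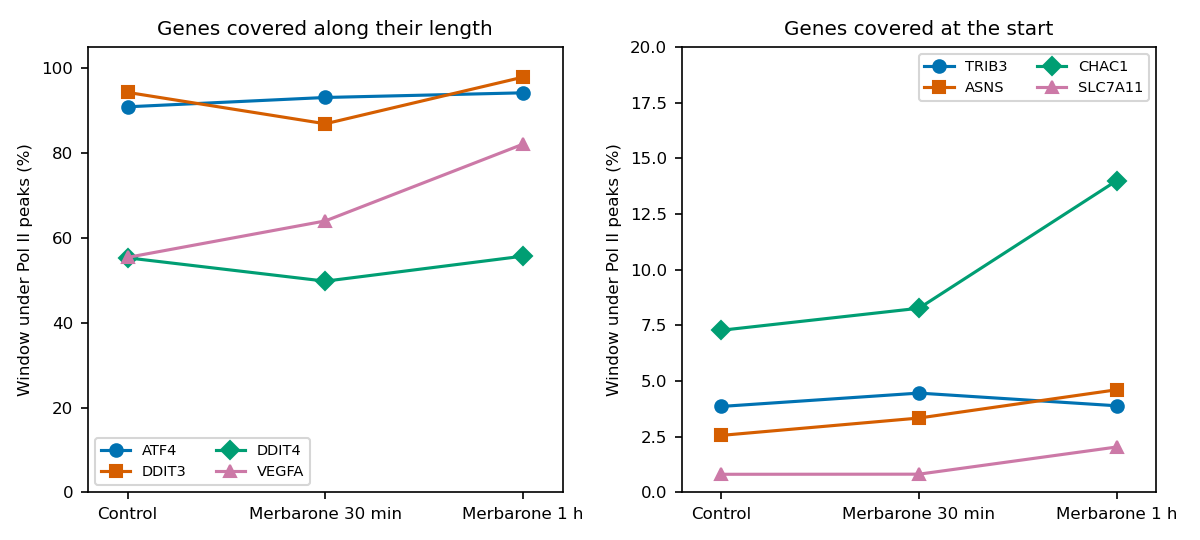
Share of each gene window under Pol II peaks (%, vertical axis) in the control, 30 min and 1 h lists (horizontal axis), 1 point per list, with no replicates; the vertical axes of the 2 panels differ. Cover of the VEGFA window was 55.4%, 64.0% and 82.1% along this order, while ATF4 stayed between 90.9% and 94.2%.

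VEGFA encodes the vascular endothelial growth factor A and answers to both ATF4 and the hypoxia factors. It had the largest difference of the 8 in percentage points of the window. Its span lies at chr6:43737946-43754223 (hg19, as for all spans below) on the + strand. Cover of its window was 55.4% in the control list, 64.0% in the 30 min list and 82.1% in the 1 h list. The 1 h list thus exceeded control by 26.7 percentage points and exceeded the 30 min list by 18.1 points. As a ratio of cover at 1 h to control, VEGFA stood at 1.48, below SLC7A11 at 2.51, CHAC1 at 1.93 and ASNS at 1.80. The other genes stood at 1.01 to 1.04.

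Most of the difference between 1 h and control, 5690 of 6214 bp, lay inside the gene. For control, 30 min and 1 h in turn, cover of the span alone was 63.9%, 75.1% and 98.9%. In the 2 kb upstream it was 27.1%, 29.0% and 27.6%, and in the 5 kb downstream 39.1%, 41.7% and 49.4%. The covered stretch began 542, 580 and 553 bp upstream of the start in that order and ended 18357, 18550 and 18747 bp downstream of it.

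The VEGFA window held 22 control peaks, 31 peaks of the 30 min list and 3 of the 1 h list. The widest spanned 4141, 3391 and 15017 bp. Bases without a peak between them summed to 5994, 4235 and 181 bp. All gaps were under 1 kb, the widest being 776 bp in control, so the window reads as an interrupted stretch in control and at 30 min and as a nearly unbroken one at 1 h. When peaks within 1 kb were joined, the 1 h list exceeded control by 1.72 points only, since that step fills the gaps. The smallest gap between any peaks was 38 bp in the 1 h list and 1 bp in the others. With these limits made alike, VEGFA had 16, 21 and 3 peaks and the difference between 1 h and control was 28.5 points. Wider peaks at 1 h were not particular to VEGFA. Over the whole control, 30 min and 1 h lists, the median peak width was 242, 277 and 347 bp. Peaks of 10 kb or more numbered 41, 47 and 176.

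ATF4, the transcription factor at the centre of the response, lies at chr22:39916569-39918691 on the + strand, with a span of 2.12 kb. Pol II peaks lay over 90.9% of its window without drug, 93.1% after 30 min and 94.2% after 1 h. With this cover in control, a gain of 10 points was not possible. Over the span alone the shares were 69.2%, 83.6% and 83.6%.

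That difference of 14.4 points at 30 min came mostly from a single gap in the second part of the gene. In control a peak ended 1422 bp downstream of the start and the next began at 1948 bp. The peaks beside this gap ended and began at 1679 and 1929 bp at 30 min and at 1660 and 1913 bp at 1 h, so the gap measured 525, 249 and 252 bp in the 3 lists. Between 96.5% and 97.7% of the 5 kb downstream was covered in each list. RPS19BP1 is the next protein-coding gene downstream in RefSeq, so Pol II of ATF4 and of its neighbour cannot be told apart there. On the upstream side the neighbour is MIEF1, and its Pol II was not separated from that of ATF4 either. The peak at the far end of the window ended 7990 bp from the ATF4 start without drug, 9329 bp from it after 30 min and 9558 bp after 1 h.

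DDIT3, which encodes the death-promoting factor CHOP, lies at chr12:57910371-57914300 on the - strand. Cover of its window was 94.3% without drug, 86.9% after 30 min and 97.9% after 1 h, so the 30 min list was the lowest of the 3. The difference from control was -7.47 points at 30 min, short of the 10 points used here, and the 1 h list lay 11.0 points above the 30 min list. With peaks within 1 kb joined, both differences were 0 points. That had to follow, since the widest gap in any list was 529 bp and joining fills every gap here. Over the span alone, the difference between 1 h and 30 min was 3.84 points. At 30 min the Pol II peak over the start ended 2639 bp downstream and the next began at 2791 bp, which left 151 bp of the gene without a peak. At 1 h a peak of 9407 bp, and in control a peak of 6971 bp, ran across the whole gene.

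The remaining differences at DDIT3 were in the flanks. Upstream, 83.8%, 68.0% and 91.3% of the 2 kb was covered in the control, 30 min and 1 h lists. In RefSeq, LOC128125814 is the upstream neighbour of DDIT3 and overlaps it, so Pol II on that side cannot be credited to DDIT3 alone. The 5 kb downstream was covered over 94.1%, 87.2% and 98.8% in the same order. MARS1, which overlaps DDIT3 in RefSeq, shares this stretch, and reads of the 2 genes cannot be told apart in peaks without strand. At both merbarone times a wide peak reached into the window from beyond its upstream end, 10350 bp wide at 30 min and 11171 bp wide at 1 h, against a peak of 2524 bp in control. These are widths of single peaks. Most of the wide peaks lay beyond the window, where other control peaks were not counted and cover was not compared.

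DDIT4, also called REDD1, an inhibitor of the growth kinase complex mTORC1, lies at chr10:74033677-74035797 on the + strand. Its whole span was covered in each Pol II list. The peak over the start measured 5048 bp without drug, 4545 bp after 30 min and 4910 bp after 1 h. It ran 1294, 1102 and 1289 bp upstream of the start and 3753, 3442 and 3620 bp downstream. The 30 min peak was thus shorter than the control peak at both ends, a difference of -503 bp in all, or -5.51 points of the window. A further peak of 172 bp stood past its end at 1 h, and cover of the window was then 55.7%, against 55.3% in control.

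**Figure D2:**
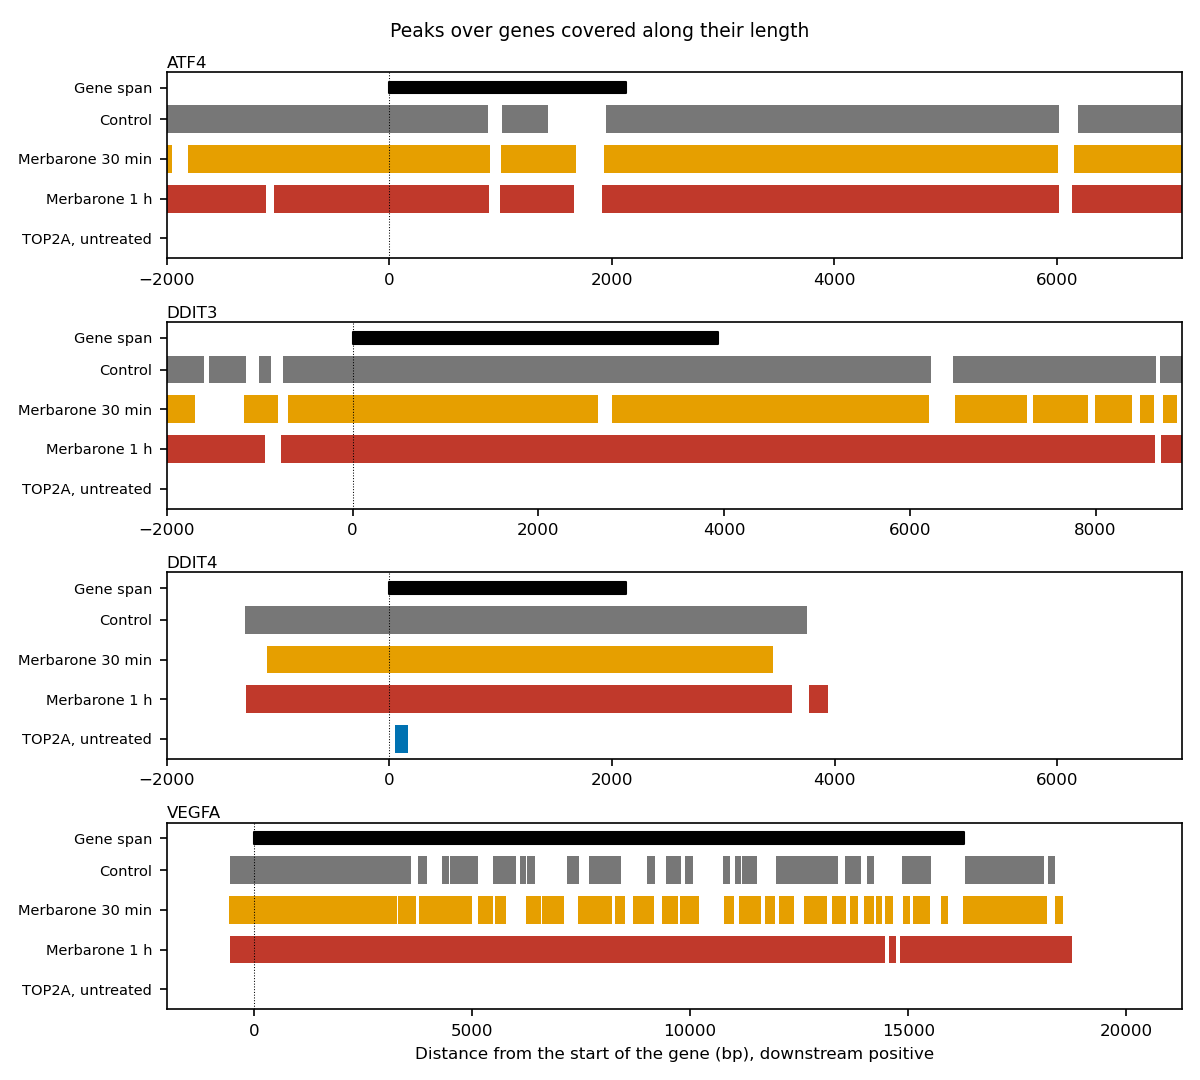
Peaks of the control, 30 min and 1 h Pol II lists and of the TOP2A list (coloured bars) over ATF4, DDIT3, DDIT4 and VEGFA, with the gene span in black; the horizontal axis gives the distance from the start in bp, positive downstream, over the whole window. The 22 control peaks over VEGFA stand against 3 at 1 h, and DDIT4 has the only TOP2A peak.

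ASNS, which makes asparagine from aspartate and is a long-studied ATF4 target, lies at chr7:97481429-97501854 on the - strand. It had a single Pol II peak, at the start, in every list. Its width was 701 bp without drug, 917 bp after 30 min and 1263 bp after 1 h. Its downstream edge stood 472, 681 and 976 bp from the start, while its upstream edge differed less, at 228, 235 and 286 bp. No Pol II peak was called over the rest of the 20.4 kb gene or in the 5 kb downstream.

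SLC7A11 encodes the cystine importer xCT, which feeds glutathione synthesis, and is also a target of the oxidative stress factor NRF2. It lies at chr4:139085248-139163503 on the - strand, the longest span of the 8 at 78.3 kb. The start peak spanned 694 bp in the control list, 698 bp in the 30 min list and 1417 bp in the 1 h list. Its downstream edge stood at 207, 358 and 848 bp from the start. At 30 min the peak was as wide as in control but lay further downstream, with the upstream edge at 339 bp against 486 bp in control. A second peak of 325 bp lay 6496 to 6820 bp downstream of the start at 1 h only.

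CHAC1 encodes an enzyme that degrades glutathione and lies at chr15:41245636-41248717 on the + strand. Its start peak measured 734, 834 and 1106 bp for control, 30 min and 1 h. Unlike that of ASNS, most of this peak lay upstream of the start, by 576, 548 and 807 bp, and its downstream edge stood at 157, 285 and 298 bp. A peak of 309 bp lay past the end of the gene at 1 h only, 4453 to 4761 bp from the start. Cover of the window was 7.28%, 8.27% and 14.0% in that order.

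TRIB3, a pseudokinase that binds and restrains ATF4, lies at chr20:361308-378203 on the + strand. Its nearest Pol II peak began 64, 74 and 100 bp downstream of the start in the 3 lists. It was thus the only gene of the 8 with no peak over the start base of its hg19 span. The RefSeq start used for its promoter was not set against that base. That peak was 721, 777 and 735 bp wide, and a second of 202, 289 and 194 bp followed it. TRIB3 had the smallest difference in cover between 1 h and control, 0.0251 points.

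**Figure D3:**
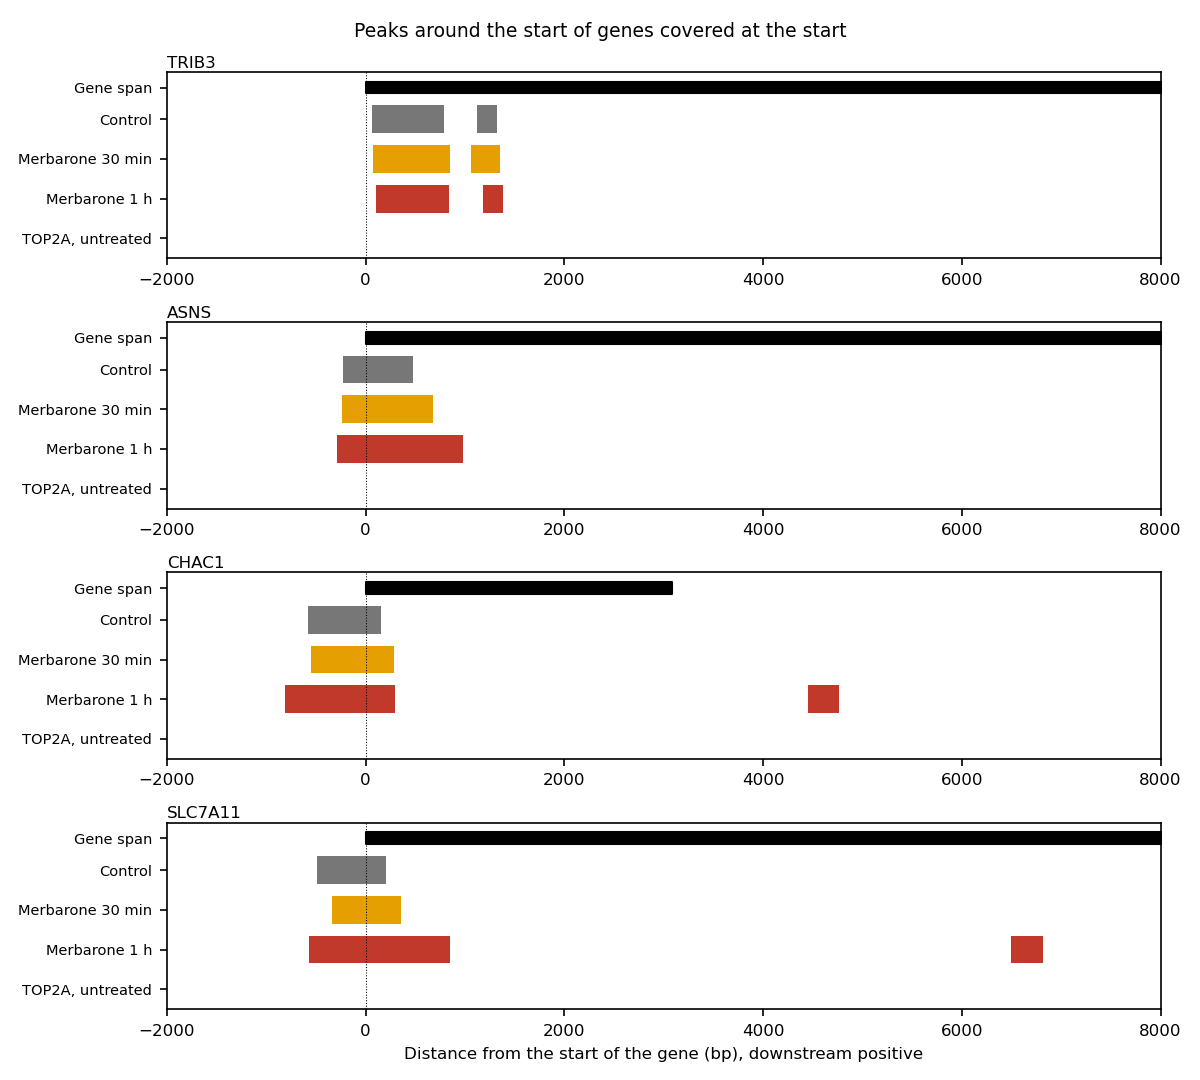
Peaks of the control, 30 min and 1 h Pol II lists and of the TOP2A list (coloured bars) around the starts of TRIB3, ASNS, CHAC1 and SLC7A11, with the gene span in black; the horizontal axis gives the distance from the start in bp, positive downstream. The start peaks of ASNS, CHAC1 and SLC7A11 measured 1263, 1106 and 1417 bp at 1 h, against 701, 734 and 694 bp in control.

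Widening of start peaks was set against other control peaks of 500 to 1000 bp. Of these 4 genes, 3 had a start peak at least 1.5 times as wide at 1 h as in control, by 1.80 times for ASNS, 1.51 times for CHAC1 and 2.04 times for SLC7A11. The ratio was 1.02 for TRIB3. Of 11617 control peaks of that width with an overlapping peak at 1 h, 49.2% had partners at least that much wider, and the median ratio was 1.47. At 30 min 0 of the 4 passed, with ratios of 1.01 to 1.31, where 31.3% of 11646 control peaks did and the median ratio was 1.16. With 4 genes, these counts are too few to be set apart from the shares of all such peaks.

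Changes over the whole windows were read in the same way. At 30 min against control, 0 of the 8 windows were higher by at least 10 points and 0 lower, where 6.85% of tiles were higher and 1.62% lower. CHAC1, TRIB3, ASNS and SLC7A11 were covered over less than 10% in the control and 30 min lists. Their windows thus could not be lower by 10 points in any comparison. Many tiles could not either, as the median cover of tiles in control was 6.85%. ATF4 and DDIT3, covered over more than 90% in control, could not be higher by 10 points, which leaves 6 windows that could. The median change was 0.693 points over the 8 windows and 0.280 points over the tiles. In windows of 10 kb from 2 kb upstream of the start, the same size as the tiles, the median was 1.21 points and the counts were the same. DDIT3 and DDIT4 were the 2 windows with less cover at 30 min than in control, beside 36.3% of tiles with less.

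At 1 h against control, 1 of the 8, VEGFA, was higher by at least 10 points, beside 16.7% of tiles, and 0 were lower, beside 1.15% of tiles. ATF4 and DDIT3, covered over more than 90% in control, could not gain 10 points, which leaves 1 of 6 genes beside 16.9% of the 33244 tiles covered over at most 90% in control. In the lists as deposited, all 8 windows had more cover at 1 h by some amount, beside 70.6% of tiles. DDIT4, at 0.373 points, turned to -1.51 points with only peaks of at least 300 bp and to -0.121 points over the span plus 2 kb upstream. With peaks within 1 kb joined, ATF4 and DDIT3 differed by 0 points, since that step fills every gap in their windows. Over the span alone, DDIT3 and DDIT4, wholly covered in control, differed by 0 points. The median was 2.65 points over the 8 windows and 1.93 points over the tiles. In the 10 kb start windows the median was 4.77 points, and SLC7A11 passed as well, at 10.5 points, beside VEGFA at 18.7 points. That SLC7A11 difference of 1048 bp includes the 325 bp peak inside the gene.

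At 1 h against 30 min, VEGFA and DDIT3 were higher by at least 10 points, beside 12.4% of tiles. Lower by as much were 0 windows, beside 2.27% of tiles. ATF4, covered over 93.1% in the 30 min list, could not gain 10 points, which leaves 7 windows that could. In the lists as deposited, TRIB3 alone had less cover at 1 h than at 30 min, a difference of -137 bp or -0.573 points, beside 29.9% of tiles with less. It turned to 0.0251 points with peaks within 1 kb joined, and ATF4 turned to -0.0471 points over the span alone. The median was 3.51 points over the 8 windows and 1.48 points over the tiles. In the 10 kb start windows it was 5.59 points, with 3 genes higher by at least 10 points: VEGFA at 10.7, SLC7A11 at 10.4 and DDIT3 at 10.3. The 3 comparisons share lists, so their values are not independent of each other. With 8 genes, these counts of 0 to 3 are too few to be set apart from the tile shares. Over the whole genome the control list covered 42.8 Mb, the 30 min list 47.7 Mb and the 1 h list 58.3 Mb, and the part of this general difference in the values of single genes was not tested.

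**Figure D4:**
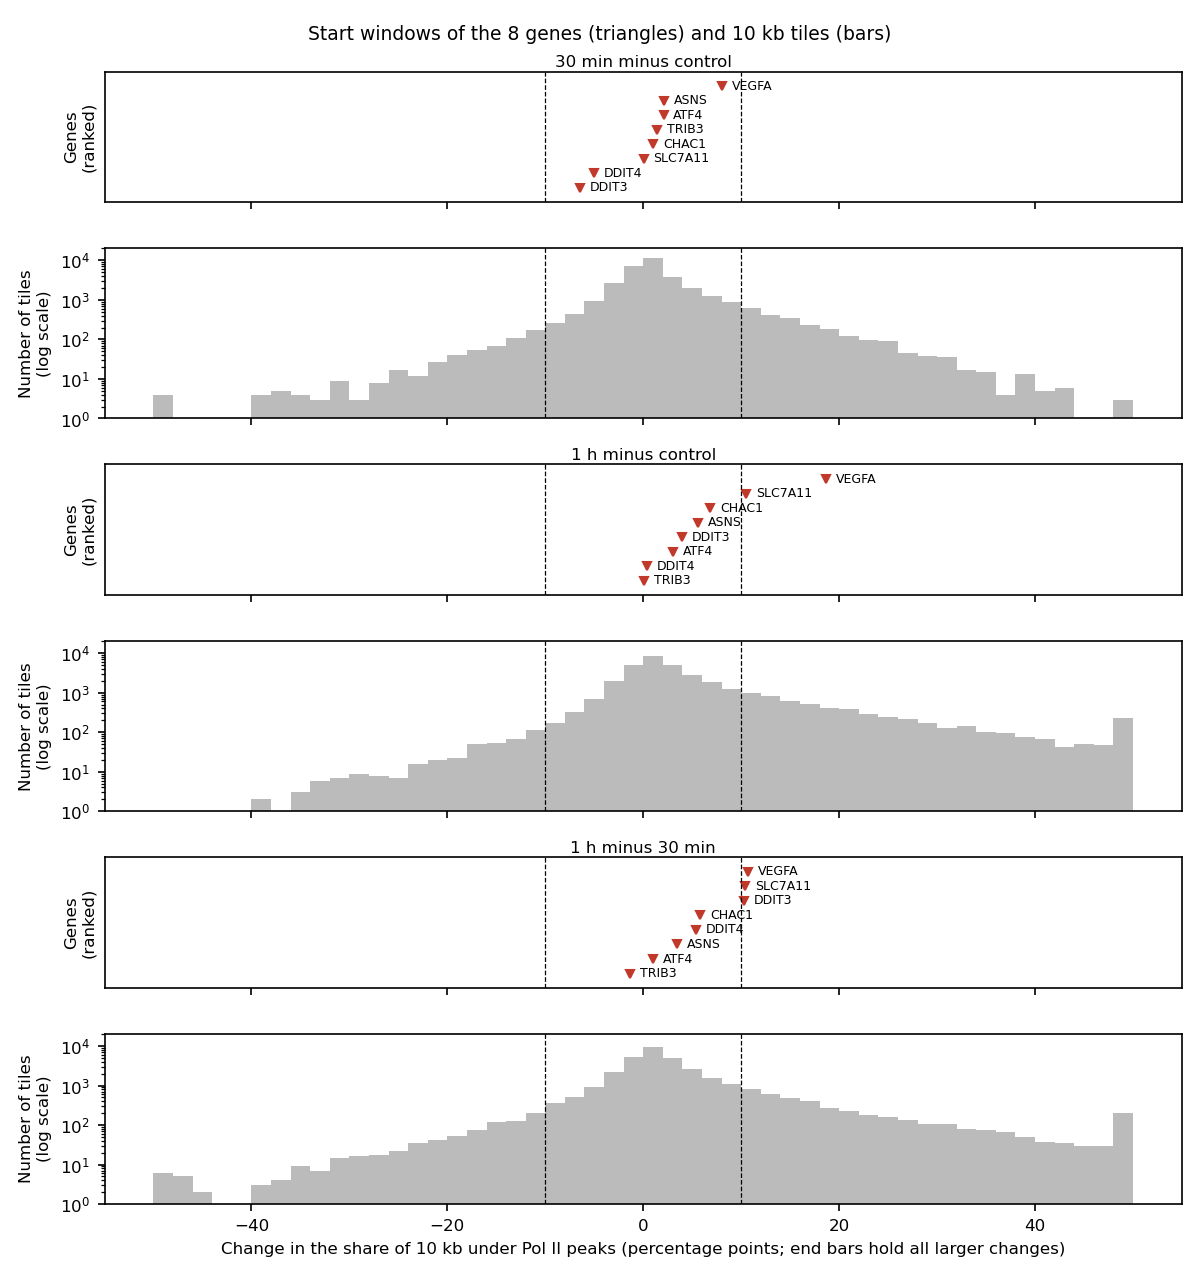
Difference in Pol II cover in percentage points (horizontal axis) for the 10 kb start windows of the 8 genes (triangles, ranked) and for 33506 tiles of 10 kb (grey bars, number of tiles on a log axis), with dashed lines at 10 points either way. VEGFA stands at 18.7 points and SLC7A11 at 10.5 points at 1 h against control, with the other genes inside the lines.

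TOP2A, which relaxes the supercoils that transcription leaves behind and before Pol II, was called at DDIT4 only. Its peak of 117 bp lay at chr10:74033728-74033844 on hg19, 51 to 167 bp downstream of the DDIT4 start, inside the Pol II peak of each Pol II list. In all, 1 of the 8 windows held a TOP2A peak, beside 4.77% of the 27349 tiles of 10 kb with a control Pol II peak. The windows measured 9.12 to 85.3 kb, most of them longer than a tile, and 1 window is too few to be set apart from that share. For the other genes the nearest TOP2A peak stood between 23.5 kb from the start, at CHAC1, and 2460 kb, at TRIB3. For ATF4, DDIT3 and VEGFA, all covered widely by Pol II, it stood 827, 326 and 693 kb from the start. At DDIT4, Pol II cover of the window differed from control by -5.51 points at 30 min and by 0.373 points at 1 h. Its span was wholly covered in each list and so could not gain. A link between the TOP2A peak and these differences was not tested.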

How the data were processed

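Peak lists of ChIP-seq libraries (ChIPmentation, NextSeq 500, per the labels' protocols) were analysed. Chromatin was fixed with 1% formaldehyde for 10 min. Per the submitters' processing notes, the authors used Bowtie 1.2.0, MACS2 and deepTools 2.4.1 on hg19. Not given in the sources used here are the MACS2 version, peak threshold, background library and pooling of replicates. Deposited values are peak starts and ends in bp, counted from 0, printed here counted from 1, with no score. Depth is unknown.

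Cover was counted with all peaks as deposited over each span plus 2 kb upstream and 5 kb downstream. A size of 10 percentage points was used to count changes. Spans came with the list of genes and were not set against an hg19 annotation. Other stress response genes and genes of like pattern were not analysed here, because no hg19 annotation was used, so tiles of 10 kb took the place of genes. RefSeq of GRCh38.p14 gave promoters and neighbours. All 8 genes are named whatever their change. Genes, lists and limits were chosen with earlier results of these data known. The 10 kb start window and the comparison of start peak widths were added after seeing the data.

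Cover functions were checked on simulated data against bedtools 2.31.1. Work was done in Python 3.11.15, numpy 2.4.6, pandas 2.3.3, scipy 1.17.1 and matplotlib 3.10.9.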

Additional observations from a re-analysis of the deposited data

How the results depend on the processing

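No paired analysis was possible because a condition's libraries shared a list, so replicates could not be left out either. Like limits for the Pol II lists (peaks up to 37 bp apart joined, those under 159 bp left out) kept the direction of all 24 gene differences. They altered the values of DDIT3 and VEGFA only, so they put little to the test for the other genes. Some of the 24 were near 0, such as 4 bp for SLC7A11 at 30 min and 6 bp for TRIB3 at 1 h, both against control. Keeping only peaks of at least 300 bp kept 23, with DDIT4 turned for 1 h minus control, and gave a median of 2.63 points for 1 h minus 30 min. Joining peaks within 1 kb kept 17, with TRIB3 turned for 1 h minus 30 min. The 6 differences of ATF4 and DDIT3 became 0, since joining fills every gap in their windows and leaves no difference to see. Joining gave medians of 0.0421, 1.48 and 0.977 points for 30 min minus control, 1 h minus control and 1 h minus 30 min. With joining, 0 genes were higher at 1 h against control and 0 against 30 min.

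With the span alone, 19 directions were kept, and differences of DDIT3, DDIT4 and ATF4 became 0 or turned. Then 2 genes, ATF4 and VEGFA, were higher by at least 10 points at 30 min and 2 at 1 h against control, and 1 at 1 h against 30 min. The medians were 1.85 points for 1 h minus control and 0.732 points for 1 h minus 30 min. With 2 kb upstream added to the span, 23 directions were kept, with DDIT4 turned for 1 h minus control, and 1 gene, VEGFA, was higher at 30 min. The start window of 10 kb, added after seeing the data, kept all 24. Its medians were 4.77 points for 1 h minus control, with 2 genes higher, and 5.59 points for 1 h minus 30 min, with 3 genes higher.

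At a size of 5 points, 1 gene was higher and 2 lower at 30 min against control, 2 higher at 1 h against control and 4 higher at 1 h against 30 min. At 20 points, 0 were higher at 1 h against 30 min. The share of tiles higher at 1 h against control was 25.3% for tiles of 5 kb and 10.5% for tiles of 20 kb. The counts of start peaks and of TOP2A peaks were the same, within 1.5 times, under each alternative run. No read counts are known, so a list from more reads cannot be told apart from a list of more bound sites.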
